A study of Homo sapiens with 6 samples.

Results

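The inflammatory and interferon-induced chemokines examined here are 10 genes, CXCL1, CXCL2, CXCL3, CXCL8, CCL20, CXCL9, CXCL10, CXCL11, CXCL16 and CCL5, out of 20087 protein-coding genes in the annotation. They were chosen by name, and a histone mark was assigned to a gene when a called region overlapped its gene body or the 5 kb on either side. The data were ChIP-seq peak lists of H3K27ac and H3K4me3 from HSC3 cells, an established oral squamous cell carcinoma line, 72 h after transfection with a control siRNA (siCONT) or with an siRNA against the long noncoding RNA DLEU1 (siDLEU1). There was 1 library for each siRNA and mark, from 1 cell line and 1 siDLEU1 sequence (siDLEU1-2 in the study's text), so that no value had a replicate check and no p-value was computed. The comparison asked whether depletion of DLEU1 altered these marks at chemokine genes switched on through NF-kB and at those switched on by interferon.

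Chemokines are small secreted proteins that direct the migration of leukocytes. CXCL1, CXCL2, CXCL3 and CXCL8 attract neutrophils through the receptors CXCR1 and CXCR2, CCL20 attracts cells that carry CCR6, and their genes are classical targets of NF-kB. CXCL9, CXCL10 and CXCL11 are ligands of CXCR3 that draw activated T cells and are induced by interferon-gamma. CXCL16 is a membrane-bound ligand of CXCR6, and CCL5 attracts T cells and monocytes, and its gene responds to both NF-kB and interferon regulatory factors. H3K4me3 marks the starts of active or poised genes, and H3K27ac marks active promoters and enhancers.

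Promoters of both classes, though not that of CXCL9, held sequences that NF-kB can recognise. In the 300 bases from 250 before to 50 after the canonical start, the kB motif, searched on both strands, was found at 8 of the 10 genes and in 12.6% of all 20087 protein-coding promoters. The 9 letters GGAATTTCC, which lie within one form of the kB motif and were added after the promoter of CXCL8 had been read, were found at 6 of the 10 genes and in 0.373% of all promoters. Those 6 were CXCL1, CXCL2, CXCL3, CXCL8, CXCL10 and CXCL11. CXCL8 had the 9 letters but not the full kB motif, and CXCL9, of the interferon class, had neither. Their last 200 bases before the canonical start are shown because they set the NF-kB class (the first 4) beside the interferon class (the last 2). They were read from GRCh37 (hg19) in the direction of transcription, at chr4:74734910-74735109 on the plus strand for CXCL1, chr4:74964913-74965112 on the minus strand for CXCL2, chr4:74904407-74904606 on the minus strand for CXCL3, chr4:74606086-74606285 on the plus strand for CXCL8, chr4:76944651-76944850 on the minus strand for CXCL10 and chr4:76957224-76957423 on the minus strand for CXCL11. Capitals mark matches to the kB motif or its 9-letter form, to the AP-1 motif TGANTCA and to the TATA box TATAAA.
CXCL1: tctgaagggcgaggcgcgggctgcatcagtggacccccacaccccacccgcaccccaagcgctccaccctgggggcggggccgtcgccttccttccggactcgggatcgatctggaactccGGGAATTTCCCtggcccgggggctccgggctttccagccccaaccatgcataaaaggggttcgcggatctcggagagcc
CXCL2: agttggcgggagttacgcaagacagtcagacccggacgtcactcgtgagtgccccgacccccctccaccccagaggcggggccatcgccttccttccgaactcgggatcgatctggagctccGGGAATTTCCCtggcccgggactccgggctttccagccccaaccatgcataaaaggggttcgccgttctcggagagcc
CXCL3: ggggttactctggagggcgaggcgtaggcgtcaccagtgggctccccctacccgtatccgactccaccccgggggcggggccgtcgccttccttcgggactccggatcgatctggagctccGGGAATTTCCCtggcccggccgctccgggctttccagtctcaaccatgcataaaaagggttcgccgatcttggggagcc
CXCL8: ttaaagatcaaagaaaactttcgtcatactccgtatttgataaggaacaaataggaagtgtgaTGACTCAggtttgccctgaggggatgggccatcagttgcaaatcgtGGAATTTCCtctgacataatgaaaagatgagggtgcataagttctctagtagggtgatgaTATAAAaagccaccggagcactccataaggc
CXCL10: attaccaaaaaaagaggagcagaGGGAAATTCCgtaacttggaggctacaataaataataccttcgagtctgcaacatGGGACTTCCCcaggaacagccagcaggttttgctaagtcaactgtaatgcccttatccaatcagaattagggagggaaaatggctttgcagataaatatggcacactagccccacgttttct
CXCL11: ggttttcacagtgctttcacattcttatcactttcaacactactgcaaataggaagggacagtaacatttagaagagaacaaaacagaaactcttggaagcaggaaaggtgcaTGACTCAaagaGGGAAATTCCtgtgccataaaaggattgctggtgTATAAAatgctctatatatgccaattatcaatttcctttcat

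In CXCL1, CXCL2 and CXCL3 the capitals form a single run that holds the kB motif in both orientations, which starts at position −79, −78 and −79 from the start, in that order. CXCL8 had the 9 letters at −91, with an AP-1 match at −137 and a TATA box at −31. CXCL10 had kB matches at −177 and −122, and CXCL11 had 1 at −76, beside an AP-1 match at −87 and a TATA box at −42. In these interferon-type promoters the 9 letters stand on the opposite strand, within the kB match at −177 of CXCL10 and that at −76 of CXCL11. The letters alone thus did not separate the classes. The core of the interferon-stimulated response element, GAAANNGAA, was found in CXCL10 at −221 and in CXCL9 at −171, but also in CXCL2 at −217 and CXCL3 at −233, and in 7.07% of all promoters. The GAS motif TTCNNNGAA, an element of interferon-gamma-activated genes, was found in CXCL11 and in 6.50% of all promoters. AP-1 matches were present in 5.44% of promoters and TATA boxes in 9.82%. A match is a string of letters, and no binding was measured here.

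The promoters did differ in base composition. The 300-base promoters of CXCL1, CXCL2, CXCL3 and CXCL16 had a G+C content of 66.3%, 65%, 64.3% and 73% and held 22, 22, 24 and 34 CpG dinucleotides, close to or above the medians of 63.7% and 23 over all protein-coding promoters. Those of CXCL8, CCL20, CXCL9, CXCL10, CXCL11 and CCL5 had between 38.7% and 49.7% G+C, with 4, 3, 0, 3, 0 and 6 CpG. The 4 CpG-rich promoters were also those with a region of both marks within 1 kb of the canonical start in siCONT and siDLEU1 cells alike. Among the 6 CpG-poor ones, only CXCL8 had any region there. Over all genes the same gradient was seen, with an siCONT H3K27ac region within 1 kb of the start at 5.89% of 4159 genes with 0 to 6 CpG, 47.9% of 4274 genes with 7 to 19 CpG and 81.3% of 11654 genes with 20 or more. The H3K4me3 shares in siCONT cells were 11.6%, 48.5% and 77.0% in the same order.

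**Figure D1:**
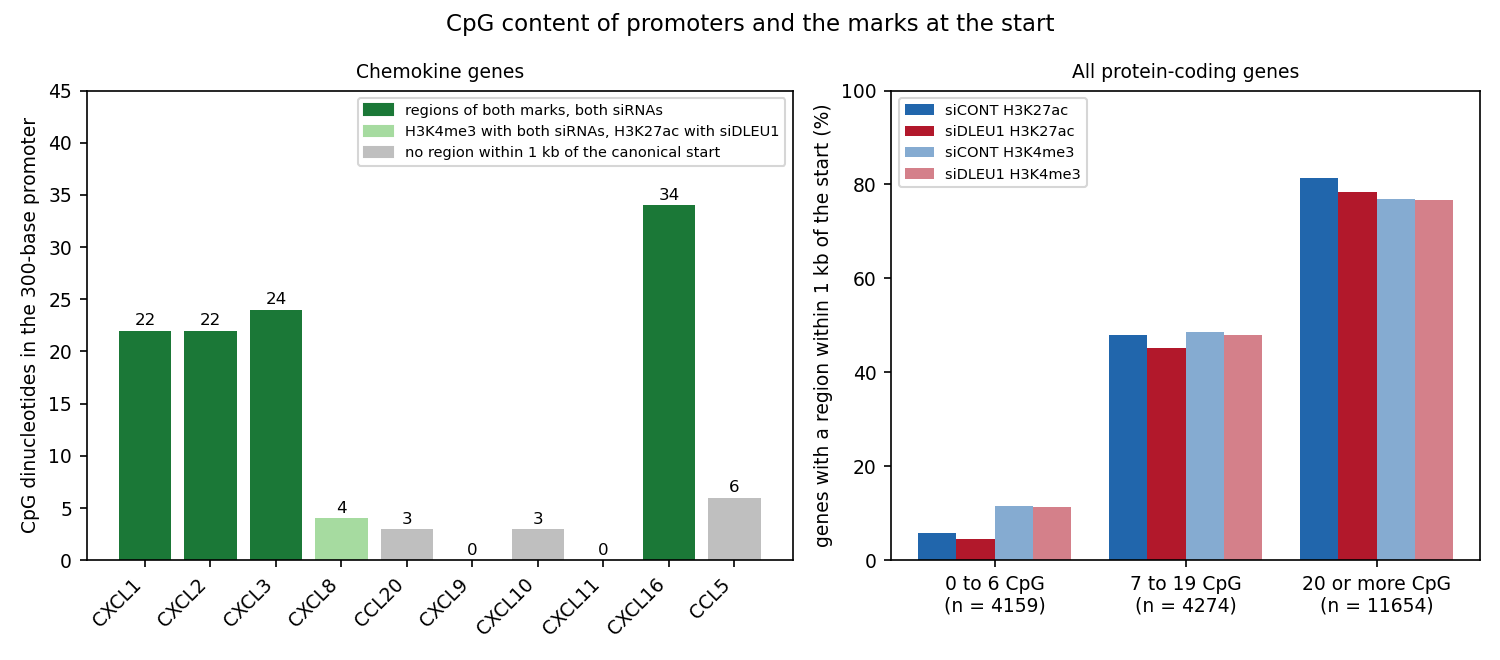
Left, number of CpG dinucleotides in the 300-base promoter of each chemokine gene, with bars coloured by the regions within 1 kb of the canonical start. Right, percentage of all protein-coding genes with a region within 1 kb of the start in each of the 4 lists, by CpG class, which rose from 4.45–11.6% in the lowest class to 76.7–81.3% in the highest.

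On the autosomes and chromosome X, the H3K27ac lists held 19705 regions in siCONT and 17672 in siDLEU1 cells, and the H3K4me3 lists 58582 and 56943. The number of fragments behind each region was recovered from its fold enrichment and p, and its median at a summit was 75 and 68 for H3K27ac and 47 and 41 for H3K4me3. The ChIP libraries were between 2.99 and 4.37 times as deep as the control used for peak calling. ChIP does not measure RNA, so the depletion of DLEU1 could not be checked in these files. All 8 squamous epithelial markers had a region of both marks with both siRNAs, and H3K27ac was called with siCONT at 1 of 6 leukocyte markers (CD14), 2 of 5 fibroblast markers and 0 of 3 endothelial markers. H3K4me3 was called with siCONT at 3, 1 and 2 of these markers in the same order, and with siDLEU1 at 3, 1 and 3.

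At least 1 region of H3K27ac lay at 5 of the 10 chemokine genes with each siRNA, against 67.1% of all protein-coding genes in siCONT and 63.5% in siDLEU1 cells. H3K4me3 was called at 7 of the 10 in both, against 70.5% and 71.0% of all genes. CXCL10, CXCL11 and CCL5 had no region in any list, as did 25.3% of all genes. The 7 siCONT and 6 siDLEU1 regions of H3K27ac at the chemokine genes were 199–1595 bp and 578–1627 bp wide, and the 11 and 13 regions of H3K4me3 were 393–1919 bp and 198–2738 bp wide. Of the H3K27ac regions, 6 of 7 in siCONT cells (85.7%, exact 95% interval 42.1–99.6) were overlapped by a region in siDLEU1 cells, and 5 of 6 in the other direction (83.3%, 35.9–99.6). For H3K4me3 these shares were 11 of 11 (100%, 71.5–100) and 10 of 13 (76.9%, 46.2–94.96). Over the whole H3K27ac lists the shares were 77.8% of siCONT and 98.8% of siDLEU1 regions, and over the H3K4me3 lists 76.4% and 78.8%, all of which lie within the intervals at the chemokine genes. These intervals cover the counting of regions only.

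**Figure D2:**
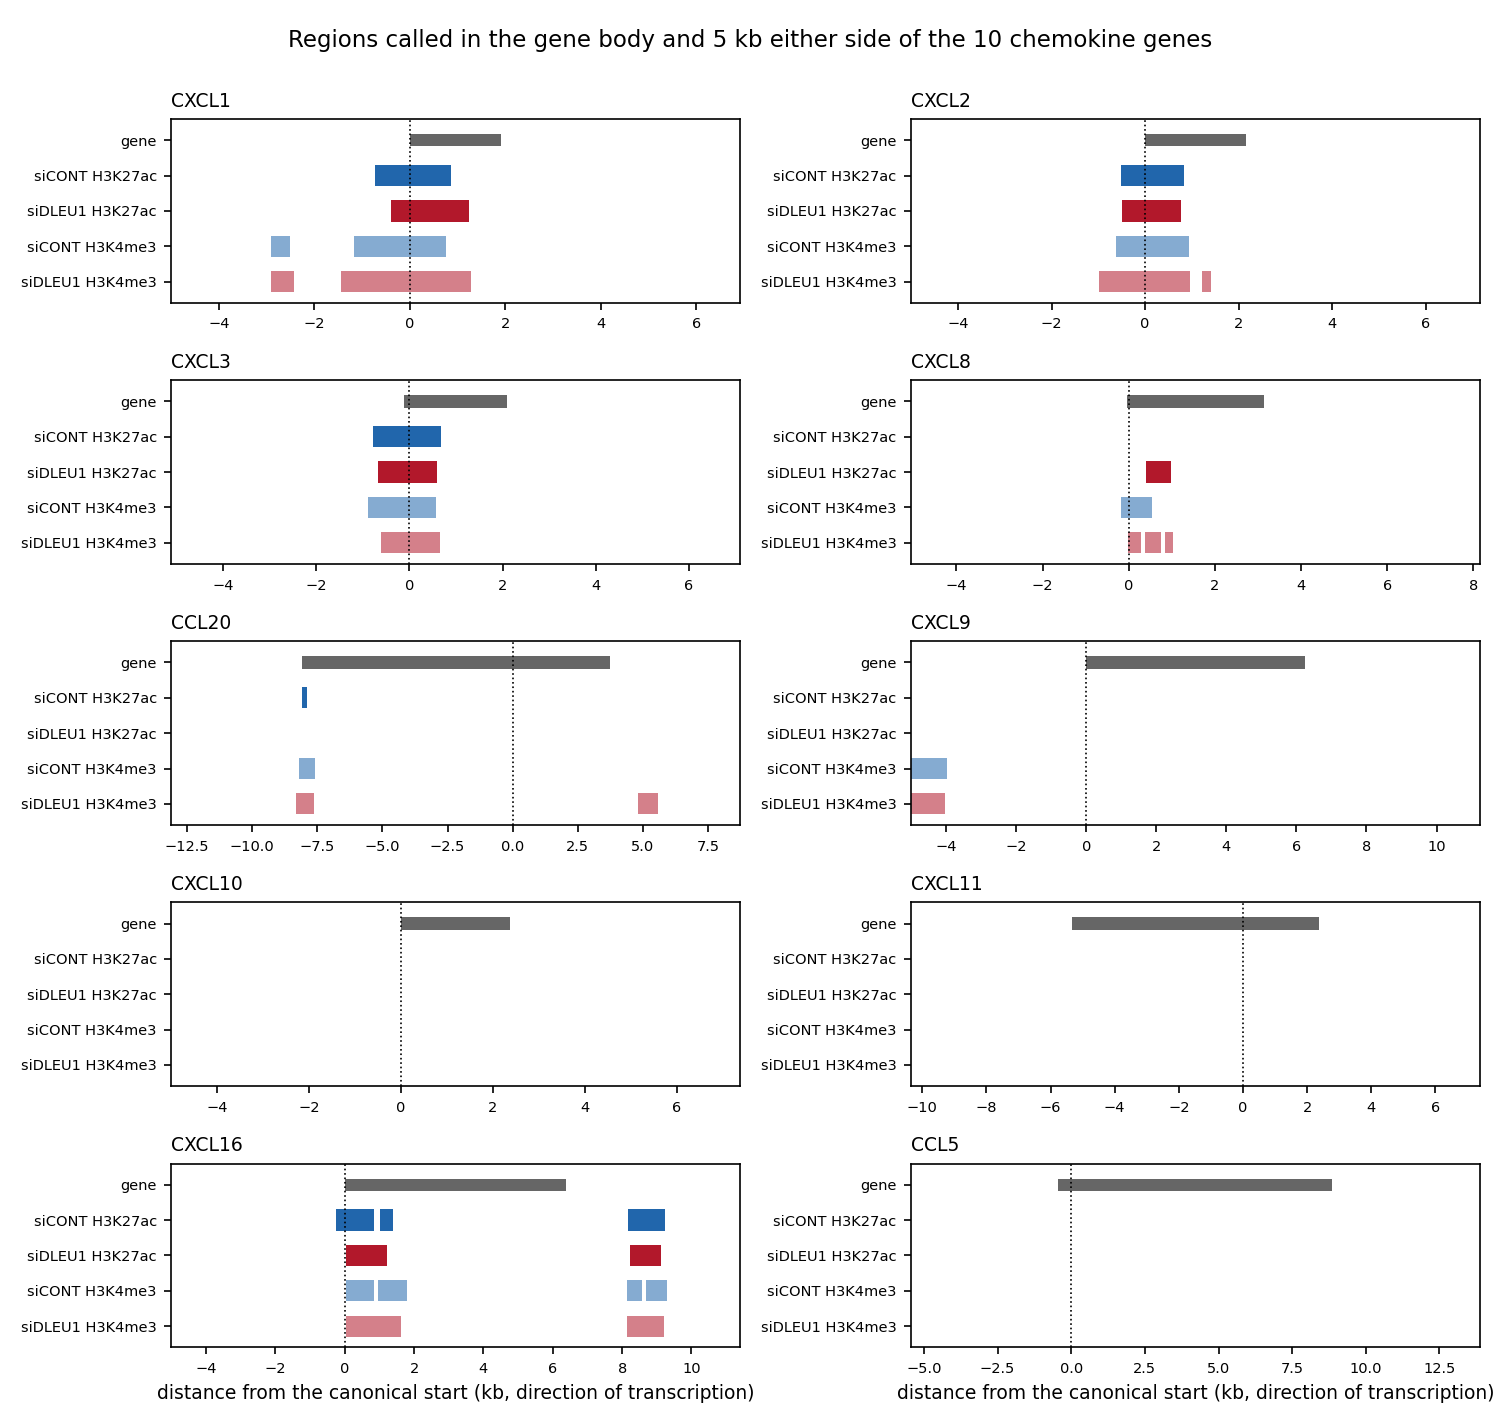
Regions called around each chemokine gene, drawn to scale as distance in kb from the canonical start in the direction of transcription, with the gene body in grey, siCONT in blue and siDLEU1 in red (H3K27ac dark, H3K4me3 light). CXCL1, CXCL2 and CXCL3 carried both marks across the start in all 4 lists, CXCL8 carried small regions within 1 kb of it, and CXCL10, CXCL11 and CCL5 carried none.

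The scale of fold enrichment differs from list to list. The strongest region in the window of a gene was therefore expressed as a percentile of all regions of the same list, ordered by fold enrichment (100 is the top of the list, 0 stands for no region). A change of at least 10 points between siCONT and siDLEU1 was counted. For H3K27ac, 2 of the 5 chemokine genes with an siCONT region were lower by that much (CXCL2 and CXCL3), compared with 35% of all 13477 genes with one, and 1 of 5 was higher (CXCL16), compared with 16.5%. A region was lost at 1 of 5 (CCL20), compared with 5.65% of all genes, and gained at 1 of the other 5 (CXCL8), compared with 0.469% of the 6610 genes without an siCONT region. For H3K4me3, 1 of 7 chemokine genes was lower (CXCL2), compared with 16.7% of 14169 genes, and 3 of 7 were higher (CXCL3, CXCL8 and CCL20), compared with 17.8%. No chemokine gene lost H3K4me3 (0 of 7, 2.6% of all genes) or gained it (0 of 3, 7.87%). The median change in percentile was −6.79 at the chemokine genes and −4.06 over all genes for H3K27ac, and 1.09 and 0.32 for H3K4me3. The H3K27ac median of the chemokine genes is the value of CCL20, which had no siDLEU1 region and was set to 0. The H3K4me3 median is the value of CXCL9, whose only region lies at a start of ART3. Neither median therefore measures a change at a chemokine start. With so few genes, these counts do not set the chemokines apart from the rest.

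**Figure D3:**
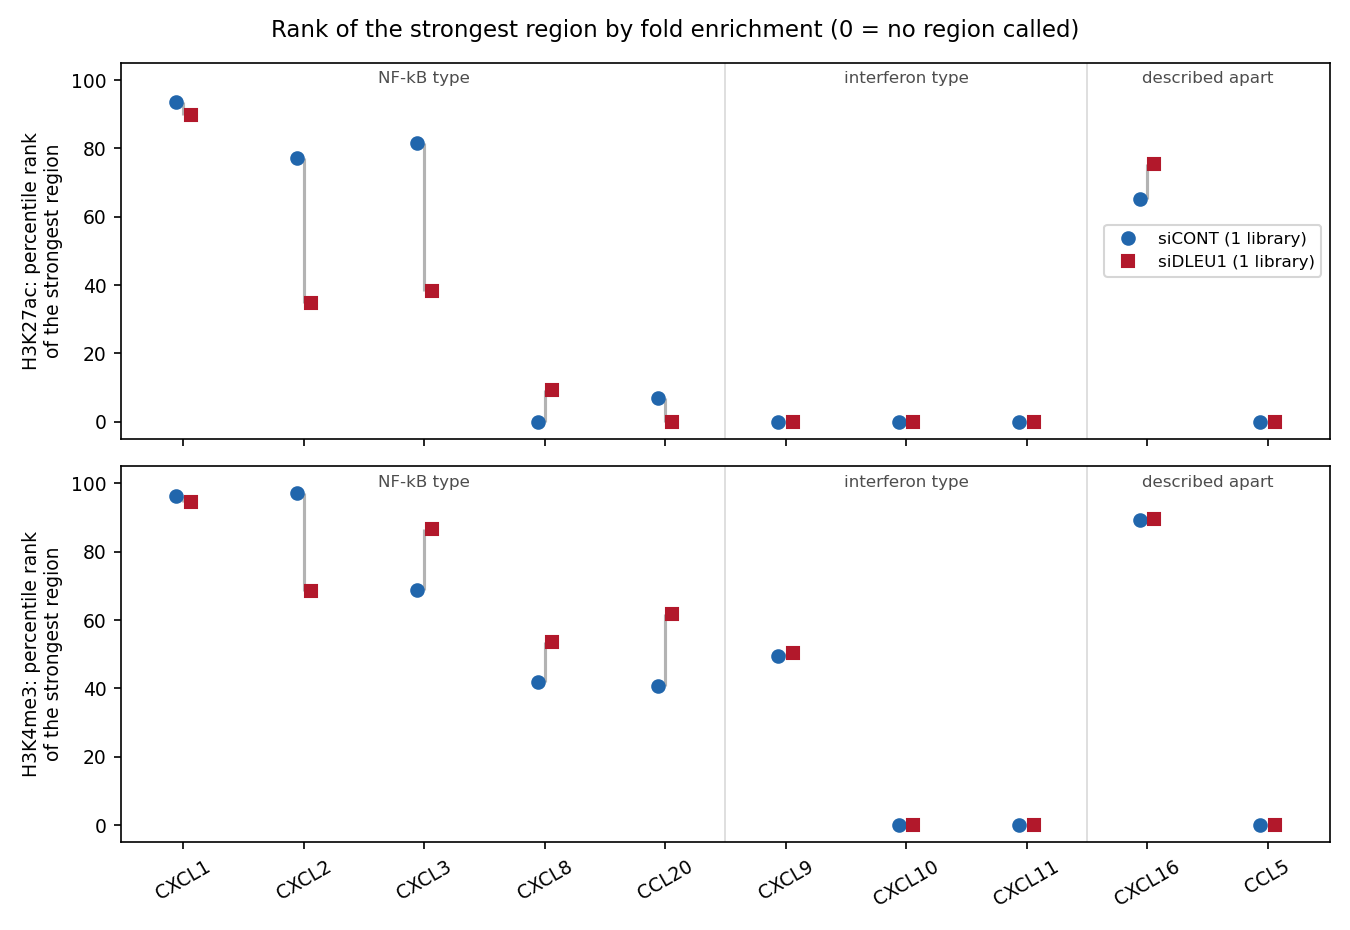
Percentile rank by fold enrichment of the strongest region of H3K27ac (top) and H3K4me3 (bottom) in the window of each gene, in siCONT (circles) and siDLEU1 (squares), 1 library each, with 0 for no region. The H3K27ac ranks of CXCL2 and CXCL3 went from 77.2 to 34.7 and from 81.7 to 38.4 while that of CXCL1 was 93.6 and 89.8, and CXCL10, CXCL11 and CCL5 lay at 0 in every list.

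CXCL1 (ENSG00000163739, chr4:74735110-74737025, plus strand) had the highest-ranked H3K27ac region of the 10 genes with either siRNA. The region ran from 74734375 to 74735969 in siCONT cells, with its summit in exon 1, 130 bp after the start, and from 74734715 to 74736341 in siDLEU1 cells, with its summit in intron 1, 209 bp after the start. Its percentile was 93.6 and 89.8. The summit held 159 and 111 fragments, which is 106.9 and 57.9 times the mean coverage of the respective library. This measure, called coverage below, does not involve the local control. H3K4me3 covered the same start from 74733947 to 74735865 in siCONT and from 74733658 to 74736395 in siDLEU1 cells, at percentiles 96.3 and 94.5 and a coverage of 78.3 and 100.2. CXCL1 thus ranked near the top of all 4 lists. A second, weak H3K4me3 region 393 and 480 bp wide lay more than 2 kb upstream, without H3K27ac.

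CXCL2 (ENSG00000081041, chr4:74962757-74964913, minus strand) had 1 H3K27ac region across its start in both conditions, 1355 bp wide in siCONT and 1257 bp in siDLEU1 cells. The unnamed gene ENSG00000289241 also has a start in this region. The fold enrichment of the region within its list was 23.02 and 7.73, and its percentile fell from 77.2 to 34.7. The number of fragments at the summit was 120 in siCONT and 97 in siDLEU1 cells, and the local control was 0.785 and 2 fragments. Ranked by fragments, the region stood at 78.9 and 77.6. The fall in fold rank by 42.5 points was thus accompanied by a higher control value, and the rank by fragments was lower by 1.34 points. H3K4me3 at CXCL2 had the same pattern, with 176 and 175 fragments, a control of 0.8 and 4 fragments, and percentiles of 97.2 and 68.4 by fold but 97.3 and 98.4 by fragments. A control of 4 or more fragments was found at 0.241% of all H3K4me3 regions in siDLEU1 cells. A further H3K4me3 region of 198 bp, in intron 3, was called only in siDLEU1 cells and ranked at 5.88.

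CXCL3 (ENSG00000163734, chr4:74902306-74904524, minus strand), the closest relative of CXCL1 in the promoter, had an H3K27ac region of 1455 bp in siCONT and 1267 bp in siDLEU1 cells. The percentile was 81.7 and 38.4, with 154 and 103 fragments and a control of 1.12 and 2 fragments. By fragments the rank was 92.6 and 81.8, a difference of −10.8 points against −43.3 by fold. For H3K4me3 the control differed in the other direction, with 2 fragments in siCONT and 1 in siDLEU1 cells, and so did the percentile, which was 68.8 and 86.6. The fragments were 117 and 112, and the rank by fragments was 88.1 and 90.4. A control of 2 or more fragments was found at 6.39–7.78% of the regions of the 4 lists. Whether the control accounts for these changes in rank was not tested.

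The promoters of these 3 genes resembled each other closely. The 300 bases were identical at 80% of positions between CXCL1 and CXCL2, 84.7% between CXCL1 and CXCL3 and 78.7% between CXCL2 and CXCL3, compared with 54.7% between CXCL1 and CXCL8. CXCL2 and CXCL3 shared an identical run of 178 bp, from 83 to 260 bp after the start of CXCL2 and from 86 to 263 bp after that of CXCL3. For CXCL1 the longest run shared was 51 bp with CXCL2 and 55 bp with CXCL3. Reads within the 178-bp run cannot be assigned to CXCL2 or CXCL3, so the values of these genes there are uncertain. The summits given above for both genes lay outside the run, between −361 and 43 bp from the start or at 312 and 393 bp. Fragments counted at the summits nearest the run may still come from reads within it, so a summit outside the run does not remove this uncertainty.

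CXCL8 (ENSG00000169429, chr4:74606236-74609433, plus strand), which encodes interleukin-8, had much weaker marks. No H3K27ac region was called in siCONT cells, where the nearest one lay 119.9 kb upstream at RASSF6. In siDLEU1 cells a region of 578 bp was called in intron 1, from 74606697 to 74607274, with a summit 892 bp after the start and 28 fragments at a coverage of 14.6. It ranked at 9.21 by fold and 3.49 by fragments, near the bottom of its list, and the lowest coverage called in the siCONT list was 8.74. Its level in siCONT cells is not known, since the lists give values only where a region was called. H3K4me3 was a region of 720 bp across the start in siCONT cells and 3 narrow regions of 304, 354 and 204 bp in siDLEU1 cells. The strongest ranked at 41.8 and 53.5 by fold but 47.2 and 46.2 by fragments. The protein-coding genes with the most similar percentiles over the 4 lists were KCNMA1, PDE1C and MGAT4C, at distances of 8.94, 9.26 and 9.54 points.

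CCL20 (ENSG00000115009, chr2:228670455-228682280, plus strand) was marked at an alternative start at the 5′ end of the gene, upstream of the canonical start at 228678558. An H3K27ac region of 199 bp from 228670461 to 228670659, with 20 fragments and a percentile of 6.79, was called in siCONT cells. None was called in siDLEU1 cells, where the lowest coverage called was 9.91, compared with 13.4 for the siCONT region. The median ratio of siDLEU1 to siCONT coverage for H3K27ac, over genes with regions in both lists, was 0.617. A fall of that size would put the CCL20 region under the lowest coverage called. The missing call therefore does not show a loss particular to CCL20, and the level in siDLEU1 cells is not known. H3K4me3 at the same place was 603 and 709 bp wide in siCONT and siDLEU1 cells and moved from percentile 40.8 to 61.8 by fold and from 28.2 to 51.7 by fragments. CCL20 thus had the largest rise of the 10 genes in H3K4me3 by either rank. Among regions with a −log10 q of at least 10, CXCL3 rose by 43.1 points. The siCONT region of CCL20, with a −log10 q of 6.05, did not pass this limit. Its value of 19.3 points there thus runs from no region and is not a measured rise. The fragments were 33 and 42. A second H3K4me3 region of 768 bp, downstream of the gene, was called only in siDLEU1 cells at percentile 16.9.

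The interferon-type chemokines lie within a 50.1-kb stretch of chromosome 4, CXCL9 (ENSG00000138755) at chr4:76922428-76928662, CXCL10 (ENSG00000169245) at chr4:76942271-76944650 and CXCL11 (ENSG00000169248) at chr4:76954835-76962568, all on the minus strand. No H3K27ac region was called anywhere in this stretch with either siRNA. The nearest ones lay at SDAD1, 32.1 kb from the start of CXCL10 in siCONT and 32.6 kb in siDLEU1 cells. The only H3K4me3 region was at a start of the neighbouring gene ART3, 3.99 kb upstream of CXCL9 in siCONT and 4.03 kb in siDLEU1 cells, and ranked at 49.4 and 50.5, with 51 and 47 fragments. It does not mark a start of CXCL9. CXCL10 and CXCL11 were at 0 in all 4 lists, so that siCONT and siDLEU1 could not be compared there. A gene without a region is one under the threshold of peak calling, which at the lowest was a coverage of 8.74 and 9.91 for H3K27ac and 8.07 and 9.11 for H3K4me3, and not one shown to lack the mark.

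Set side by side, CXCL1 and CXCL8 had H3K4me3 at their start with both siRNAs, and CXCL10 and CXCL11 with neither. All 5 NF-kB-type genes had an H3K4me3 region at an annotated start of their own in both conditions, and none of the 3 interferon-type genes did. Over all protein-coding genes, the share with H3K4me3 within 1 kb of any annotated start was 61.2% in siCONT and 60.8% in siDLEU1 cells. H3K27ac was present at the starts of CXCL1, CXCL2 and CXCL3 in both conditions. Weak regions near the bottom of their lists were called at the alternative start of CCL20 in siCONT cells and within 1 kb of the CXCL8 start in siDLEU1 cells. Over all protein-coding genes, the share with H3K27ac within 1 kb of any annotated start was 61.5% in siCONT and 58.5% in siDLEU1 cells. For H3K4me3, a change between siCONT and siDLEU1 could therefore be measured at all 5 NF-kB-type genes. For H3K27ac this held for CXCL1, CXCL2 and CXCL3 but not for CXCL8 or CCL20, where a region was called with a single siRNA. Neither mark could be compared at CXCL10 or CXCL11. The genes of a class are not replicates, and the difference between the classes was not tested.

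The marks in the NF-kB-type cluster on chromosome 4 were confined to these 4 genes in all but 1 region. The 368.7 kb from CXCL8 to CXCL2, with 5 kb added at both ends, held 3 and 4 regions of H3K27ac and 5 and 9 of H3K4me3 in siCONT and siDLEU1 cells. The exception was an H3K4me3 region of 186 bp in siDLEU1 cells, at percentile 3.81. The neighbouring genes CXCL5 and CXCL6, which encode further neutrophil attractants, and PPBP, PF4 and PF4V1, which encode platelet chemokines, had no region in any list (0 of 5).

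CXCL16 (ENSG00000161921, chr17:4636828-4643223, minus strand) shares its promoter region with ZMYND15. H3K27ac at the start was 1101 bp wide in siCONT cells, next to a second region of 364 bp, and 1155 bp wide in siDLEU1 cells. The summit held 84 and 83 fragments, and the percentile was 65.1 and 75.3 by fold and 56.0 and 65.1 by fragments. The 10.2-point rise by fold was the only rise in H3K27ac past 10 points among the chemokine genes. H3K4me3 regions of 836 and 797 bp in siCONT cells, at percentiles 61.1 and 61.9, faced a single region of 1571 bp at 63.4 in siDLEU1 cells. The strongest H3K4me3 region in the window, at 89.4 and 89.6, belongs to the start of MED11, beyond the 3′ end of CXCL16. CCL5 (ENSG00000271503, chr17:34198495-34207797, minus strand) had no region in any list, and the nearest H3K4me3 lay 9.85 and 9.79 kb upstream.

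Coverage at the summit allows siCONT and siDLEU1 to be compared without the control. At the gene's own start, in the region with the most fragments, the ratio of siDLEU1 to siCONT coverage for H3K27ac was 0.542 at CXCL1 (95% counting interval 0.421–0.695), 0.627 at CXCL2 (0.475–0.827), 0.519 at CXCL3 (0.4005–0.671) and 0.767 at CXCL16 (0.559–1.051). The median ratio of the 12715 genes that had regions with both siRNAs, taken at the highest coverage in each window, was 0.617, with quartiles of 0.562 and 0.682. The intervals of all 4 genes included this median, so that a change at these genes apart from that of genes in general was not detectable at this depth. For H3K4me3 the ratio was 1.28 at CXCL1 (1.02–1.60), 1.36 at CXCL2 (1.10–1.69), 1.31 at CXCL3 (1.003–1.71), 1.16 at CXCL8 (0.731–1.82), 1.74 at CCL20 (1.08–2.84) and 1.18 at CXCL16 (0.771–1.80). The median over 13800 genes was 1.25, with quartiles of 1.07 and 1.45, and again lay within every interval. The intervals cover counting error only and not the difference between separate transfections. A scale common to the whole library, such as its signal over background, enters every ratio of a mark, so the values are read against the median and not against 1.

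**Figure D4:**
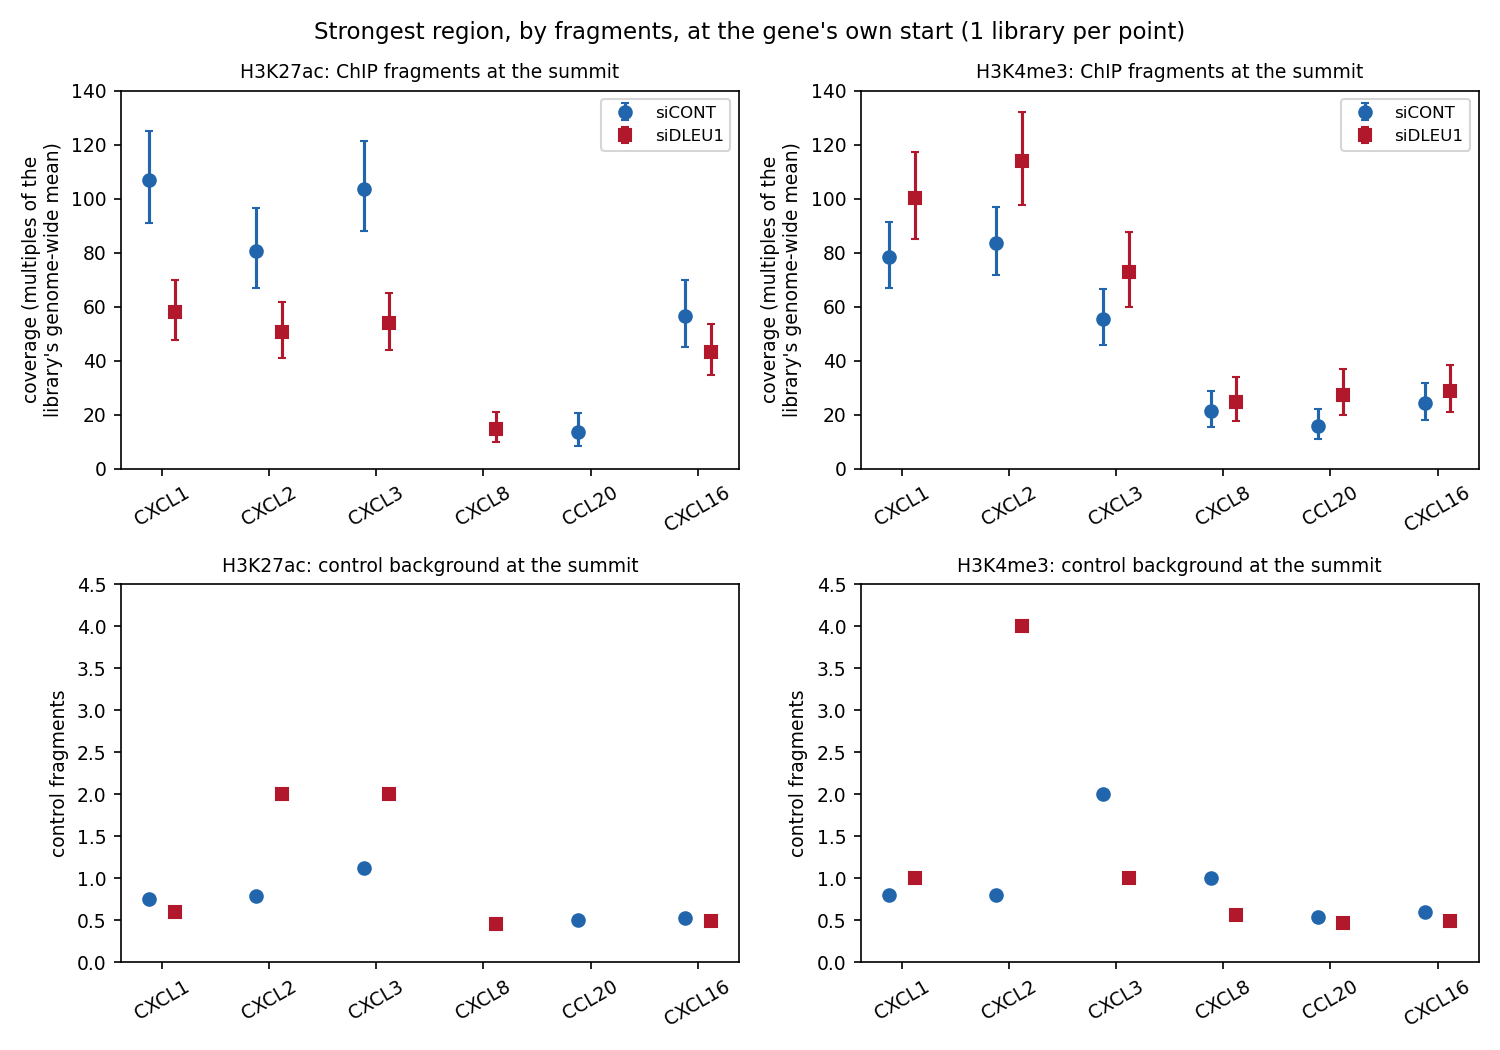
Top, coverage at the summit of the region with the most fragments at the gene's own start, in multiples of the library's mean coverage, with exact 95% Poisson counting intervals, in siCONT (circles) and siDLEU1 (squares); no point is drawn where no region was called. Bottom, local control background in fragments at the same summits, which was 2 at CXCL2 and CXCL3 in the siDLEU1 H3K27ac list and 4 at CXCL2 in the siDLEU1 H3K4me3 list.

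The length covered by regions at the chemokine genes moved little for H3K27ac, from 7135 bp in siCONT to 6782 bp in siDLEU1 cells (ratio 0.951), and rose from 10345 to 12601 bp for H3K4me3 (ratio 1.22). The median ratio over genes with an siCONT region was 0.871 at the chemokine genes and 0.762 over all genes for H3K27ac, and 1.197 and 0.893 for H3K4me3. The length covered by H3K4me3 in the window grew most at CCL20 (603 to 1477 bp, of which 768 bp are the new downstream region), CXCL1 (2312 to 3218 bp) and CXCL2 (1561 to 2146 bp, of which 198 bp are the new region in intron 3), while that of CXCL3 went from 1454 to 1265 bp.

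Other genes of the same pathways gave the setting, and their counts are to be read against the 67.1% (siCONT) and 63.5% (siDLEU1) of all genes with H3K27ac, the 70.5% and 71.0% with H3K4me3 and the 5.65% that lost H3K27ac. The regions counted lay in the windows of these genes, and whether they mark the gene's own start was not checked. Among 25 other chemokine ligands, H3K27ac was called at 2 in both conditions, CCL27 and CCL28, and H3K4me3 at 5 and 6. Among 22 chemokine receptors it was called at 4 in siCONT and 2 in siDLEU1 cells, with ACKR3, a scavenging receptor of CXCL12 and CXCL11, going from percentile 37.2 to none and CCR7 from 5.88 to none. H3K4me3 was called at 8 and 9 of the receptors. Of 13 other NF-kB-driven cytokine and feedback genes, 9 had H3K27ac in siCONT and 7 in siDLEU1 cells, and 13 and 12 had H3K4me3. The H3K27ac percentile was lower by at least 10 points at 5 of the 9 with an siCONT region. Among these were IL23A (59.0 to 30.5), IL1B (54.1 to 29.9) and the feedback inhibitor TNFAIP3 (90.3 to 70.7). It was higher at 1 of the 9, the adhesion molecule ICAM1 (32.4 to 50.8). Of 14 interferon-gamma type genes, 12 had H3K27ac in siCONT and 11 in siDLEU1 cells. Of the 12, 5 were lower, among them the feedback inhibitor SOCS1 (58.5 to 21.7) and the GTPase GBP1 (44.1 to 9.42), and 1 was higher, the immunoproteasome subunit PSMB8 (75.6 to 95.7). The share of all genes lower by at least 10 points was 35%, as above. The rise at PSMB8 was one in rank by fold. Its ratio of siDLEU1 to siCONT H3K27ac coverage was 0.660, within the quartiles of all genes (0.562 and 0.682). The ratio was below them at IL23A (0.472), IL1B (0.468), TNFAIP3 (0.434), SOCS1 (0.535) and GBP1 (0.423), and above them at ICAM1 (0.790). These genes were named for their change in rank, and no counting interval was computed for them. Ratios within the quartiles were also found among the genes lower by at least 10 points.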

How the data were processed

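The authors aligned Ion Proton reads against hg19 using bowtie2 and deposited 1 narrowPeak list of MACS2 per ChIP library, 4 in all. Each deposited list gives a fold ratio (enrichment over local background), a −log10 p and a −log10 q, all from MACS2, whose settings and control library are not given in the sources used here. The score column of these lists and the 2 input libraries were not used. Regions on chromosomes 1 to 22 and X were assigned to GENCODE release 44 protein-coding genes in GRCh37 coordinates, with a minimum overlap of 1 bp. Fragments and control background at each summit were solved from fold and p (100% of peaks matched within 0.02 fragments), which was also tested on simulated data. Intervals are exact Poisson, exact conditional or exact binomial (95%) and cover counting error only. No p-value was computed.

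The members and lists were chosen with earlier results of these data known. Values are given for all 10 members, for other lists at most the 3 largest falls and 3 largest rises, for neighbours that share a region, and for the 3 genes closest to CXCL8 in percentiles. CCL27, CCL28, CD14, CCR7, RASSF6 and SDAD1 fall outside this rule and were named after their values were seen. Some listed genes are not reported here by name. Alternatives were regions with −log10 q of 10 or more, stitching within 1 kb, other windows, equal numbers of regions, an overlap of 50% of both regions, and ranks by −log10 p or by fragments. The 9-letter motif and the coverage ratio were added after the data were seen. The base composition, the CpG classes, the promoter identities and the comparison of control values were not planned beforehand either. Python 3.11.15, numpy 2.4.6, scipy 1.17.1, pandas 2.3.3 and Biopython 1.88 were used.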

Additional observations from a re-analysis of the deposited data

How the results depend on the processing

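With 1 library for each siRNA and mark, no replicate could be left out. No paired analysis was possible because the groups compared hold 1 library each and no test was made. For H3K27ac, the median percentile change at the chemokine genes was −38.0 with a −log10 q of at least 10, −24.7 with 10-kb flanks, −21.5 with equal numbers of regions, −5.03 by −log10 p and −3.08 by fragments. The first 3 of these rest on another set of genes than the main value, which had 5. The limit on q and equal numbers of regions left 4 genes, without CCL20. With 10-kb flanks there were 6, since the siCONT region at SDAD1 entered the window of CXCL9. They do not show a stronger fall at the same genes. The ratio of covered length was 0.807 with a −log10 q of at least 10, 0.931 with 10-kb flanks and also within 1 kb of any start, and 0.978 with equal numbers of regions, and it reversed to 1.14 in the gene body alone. The share of overlapped regions was 100% in siCONT with equal numbers of regions and 100% in siDLEU1 with a −log10 q of at least 10. For H3K4me3, a −log10 q of at least 10 left 4 genes with a region in siCONT and 7 regions with each siRNA, and turned the median change to −0.459. The siCONT list also held 7 regions in the gene body alone and 7 within 1 kb of any start, and the siDLEU1 list 9 and 8. The median change was 6.63 with both of these windows, which left 6 genes with an siCONT region, without CXCL9. It was 2.55 with equal numbers of regions, 5.05 by −log10 p and 2.30 by fragments. The ratio of covered length was 1.35 with a −log10 q of at least 10, 1.16 with 10-kb flanks, 1.21 in the gene body alone and 1.08 within 1 kb of any start. An overlap of 50% of both regions left 63.6% of siCONT regions overlapped. Of 85 percentile changes of single genes, 35 were identical, 46 moved without reversal and 4 reversed, all for H3K4me3. Among regions past a −log10 q of 10, H3K27ac changed by −68.2 at CXCL2 and −72.5 at CXCL3, and H3K4me3 by −60.3 and 43.1. By fragments, H3K4me3 changed by 0.724 at CXCL1, 1.08 at CXCL2 and −1.08 at CXCL8, and with 10-kb flanks H3K4me3 changed by 0.281 at CXCL2. The causes were not tested. Depth limits the weak regions, since those of CXCL8 and CCL20 rest on 20 to 45 fragments.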
